A study of Mus musculus with 6 samples.

Results

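The 9 genes described here encode parts of the inflammasome, or proteins that act with it, in mouse myeloid cells: the sensors Nlrp3, Nlrc4, Aim2 and Nlrp1a, the adaptor Pycard, the caspases Casp1 and Casp4, the pore protein Gsdmd and the channel protein Panx1. They were chosen by name, as all non-control probes of the arrays whose gene name was one of these 9, which gave 12 probes for 9 of the 28312 named genes with a probe. Single-colour arrays, 6 in all, measured RNA of sorted myeloid cells: 3 samples were from infarcted left ventricles, called heart 1, 2 and 4, and 3 from spleens, called spleen 1, 2 and 4. All samples came from wild-type C57BL/6N mice at day 3 after acute myocardial infarction, and no samples of uninjured mice were analysed here. Each difference is thus between 2 organs of infarcted animals. Whether it is a response to the infarct cannot be told from these samples. Per the labels' protocols, the sorting gate took cells with high CD45 and high CD11b and low staining for CD45R/B220, CD90.2, NK1.1, CD49b and Ly6G, which mark lymphocytes, natural killer cells and neutrophils. Each organ was analysed on its own, and the labels do not state whether hearts and spleens that share a number are from 1 animal. The p-values measure the spread between these samples.

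An inflammasome forms when a sensor protein in the cytosol detects a trigger and assembles, usually through the adaptor ASC (the product of Pycard), into a platform that activates caspase-1. Caspase-1 then cleaves the precursors of interleukin-1β and interleukin-18 and cuts gasdermin D, whose freed end forms pores in the plasma membrane and can kill the cell by pyroptosis. Mouse caspase-11, the product of Casp4, is activated directly by bacterial lipopolysaccharide in the cytosol and also cuts gasdermin D. In macrophages, Nlrp3 and the interleukin-1β precursor are known to be induced by a priming signal through NF-κB, whereas assembly and cleavage are steps of the proteins that RNA levels do not measure.

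Nlrp3 was the only gene of the 9 called different between the organs. Its RNA level was 4.91-fold higher in heart than in spleen myeloid cells. The probes of the adaptor, both caspases, gasdermin D and Panx1 and the brighter Nlrp1a probe lay above the 75th percentile of all 6 arrays. None of these genes passed the test. The threshold for a call was an adjusted p of 0.05 (Benjamini-Hochberg) in limma's moderated test over all 16365 genes tested, and 1 of the 9 members was called higher and 0 lower. Over all genes tested, 15.5% were called, 9.07% higher and 6.4% lower, so the members' count lies near the background. At an unadjusted p under 0.05, 2 of the 9 members (Nlrp3 and Nlrp1a) and 5230 of all 16365 genes tested passed. The values of the 3 hearts and the 3 spleens did not overlap for Nlrp3 (higher), Panx1 (lower) and Nlrp1a (lower on the brighter probe that stands for the gene, higher on its dimmer probe), against 40.9% of all genes, 24.7% higher and 16.2% lower. The median log2 fold change, heart minus spleen, was 0.18 over the members and 0.11 over all genes. The members' median turned to −0.065 under quantile normalization, −0.37 with slide as a block and −0.069 without spleen 1, and it was 0.48 without spleen 4, so it has no settled sign.

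**Figure D1:**
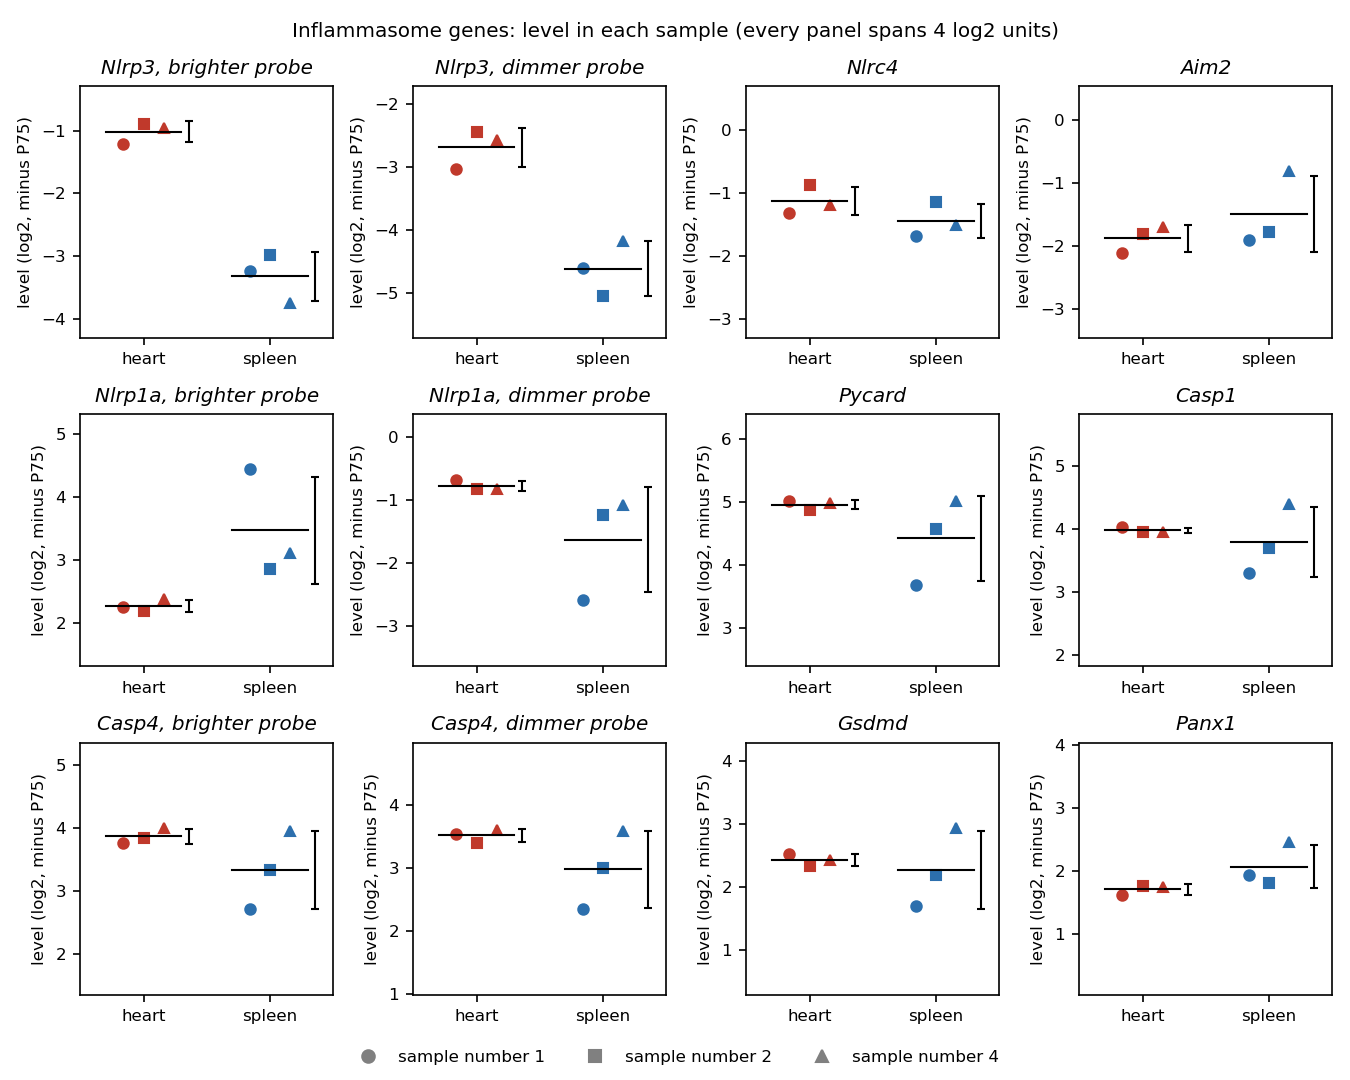
Log2 level of each member probe on each array, relative to the array's 75th percentile, with hearts left of spleens, a line at each mean and a bar of 1 SD to either side (n = 3). The SD is larger over the spleens than over the hearts for all 12 probes, and for 84.3% of all genes tested. Hearts and spleens are fully parted upwards for both Nlrp3 probes and the dimmer Nlrp1a probe. They are parted downwards for the brighter Nlrp1a probe and Panx1. Of all probes tested, 40.4% do not overlap.

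Levels below are log2 of the processed signal minus the array's 75th percentile, so 0 is the signal that 75% of spots lie under. All 12 member probes were well above background on all 6 arrays, and no spot was saturated. Levels of different probes are not set against each other, since probes differ in how strongly they bind. Because the samples are bulk RNA, fewer cells that express a gene and less RNA per cell cannot be told apart.

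Nlrp3 encodes the sensor that responds to many forms of cell damage, including potassium efflux. Its brighter probe had log2 levels of −1.21, −0.89 and −0.96 in heart 1, 2 and 4, against −3.24, −2.97 and −3.74 in spleen 1, 2 and 4. Each heart was above each spleen. In unscaled intensity units, the processed signals were 692, 827 and 912 in the hearts and 210.3, 213 and 134 in the spleens. The mean log2 level was −1.02 ± 0.17 in heart and −3.31 ± 0.39 in spleen (SD, n = 3 each). This gave a log2 fold change of 2.30 ± 0.24 (SE), with an adjusted p of 0.00385, and a 4.91-fold difference with a 95% interval of 3.27 to 7.37. This probe lies at chr11:59378554-59378613 on the plus strand in mm9, the mouse build of the scanner files, and its place in exons was not analysed here. It is shown because the only called difference among the members rests on it, and it is printed without capitals since no part of it is compared.
Nlrp3, brighter probe: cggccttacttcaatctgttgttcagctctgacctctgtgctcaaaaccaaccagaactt

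A second, dimmer Nlrp3 probe at chr11:59379981-59380040, 1367 bases further along, gave the same direction. Its log2 levels were −3.03, −2.44 and −2.58 in the hearts, against −4.61, −5.05 and −4.18 in spleen 1, 2 and 4. The processed signals of this probe were 195, 283 and 297 in the hearts, against low values of 81.2, 50.5 and 98.7 in the spleens. All hearts were again above all spleens, and the log2 fold change was 1.93 ± 0.29 (SE, adjusted p = 0.0113 in the fit of all 21801 probes). Of all probes tested, 15% were called and 40.4% did not overlap. The order of the spleens differed between the probes: spleen 4 was the lowest on the brighter probe and the highest on the dimmer one.

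Slides and tissue were unevenly matched, since spleen 1 and 2 shared a slide, heart 2 and 4 shared another, and only heart 1 and spleen 4 lay on a slide that held both tissues. Within that slide, the log2 difference of Nlrp3, heart 1 minus spleen 4, was 2.53 on the brighter probe and 1.14 on the dimmer one. With slide as a block, which leaves this pair to carry the comparison, the adjusted p of Nlrp3 was 0.0696. The sample titles carry an earlier date for samples 1 and 2 and a later one for sample 4. The log2 difference on the brighter probe was 2.05 between the earlier samples and 2.78 between the later ones, and on the dimmer probe it was 2.10 and 1.60.

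Nlrc4 encodes the sensor that, with NAIP proteins, responds to bacterial flagellin and secretion system parts. It had log2 levels of −1.32, −0.89 and −1.19 in the hearts, against −1.69, −1.15 and −1.52 in the spleens, and the organs overlapped. Heart and spleen differed by a log2 fold change of 0.32 ± 0.22 (SE) and an adjusted p of 0.372, with a 95% interval of −0.21 to 0.85. Aim2 encodes the sensor of double-stranded DNA in the cytosol. Levels of Aim2 were −2.12, −1.81 and −1.71 on the log2 scale in the hearts, against −1.90, −1.79 and −0.81 in the spleens. Spleen 4 was the highest of all 6 samples, and spleen 1 and 2 lay among the hearts. The log2 fold change of Aim2 was −0.38 ± 0.33 (SE, adjusted p = 0.477), with an interval of −1.16 to 0.41, and it was −0.033 without spleen 4. Within the slide that held both tissues, the log2 difference of Aim2 was −1.31, against 0.20 for Nlrc4.

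Nlrp1a, a sensor of the NLRP1 family that in mice has several close copies on chromosome 11, had 2 probes that pointed in opposite directions. On the brighter probe its log2 levels were 2.25, 2.19 and 2.37 in the hearts, against 4.44, 2.85 and 3.11 in the spleens. All hearts were below all spleens, with spleen 1 far above the rest. That probe's log2 fold change was −1.20 ± 0.42 (SE, adjusted p = 0.105), and it was −0.71 without spleen 1 (adjusted p = 0.0458). On the dimmer probe the log2 levels were −0.69, −0.83 and −0.82 in the hearts, against −2.59, −1.23 and −1.07 in the spleens. All hearts were above all spleens there, with spleen 1 far below the rest, and the log2 fold change was 0.85 ± 0.41 (SE, adjusted p = 0.210 in the fit of all probes).

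The log2 level of the brighter Nlrp1a probe minus that of the dimmer one was 2.94, 3.01 and 3.19 in the hearts, against 7.03, 4.08 and 4.19 in the spleens. It was largest in spleen 1. Because the probes point in opposite directions, neither direction is given as that of the gene. The probes are printed because they disagree, with the probe of the copy Nlrp1c-ps beside them. Capitals mark, in the dimmer Nlrp1a probe and the Nlrp1c-ps probe, the bases that are identical when the sequences are aligned without gaps. They share 52 of 57 aligned bases, whereas the median over 39427 probes of other genes was 20 identical bases. The brighter probe is listed at chr11:70904699-70904751 on the minus strand in mm9, an interval of 53 bases for a probe of 60, the dimmer one at chr11:70905763-70905822 and the Nlrp1c-ps probe at chr11:71055960-71056019, both also minus.
Nlrp1a, brighter probe: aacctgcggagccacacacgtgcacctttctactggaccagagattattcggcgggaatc
Nlrp1a, dimmer probe: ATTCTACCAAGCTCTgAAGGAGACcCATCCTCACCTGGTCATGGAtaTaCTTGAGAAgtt
Nlrp1c-ps: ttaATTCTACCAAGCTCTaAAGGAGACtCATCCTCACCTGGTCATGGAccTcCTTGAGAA

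The Nlrp1c-ps probe had a log2 fold change of 0.97 ± 0.41 (SE) and an adjusted p of 0.161, with log2 levels of −1.43, −1.49 and −1.49 in the hearts, against −3.40, −2.07 and −1.86 in the spleens. Its order of spleens was that of the dimmer Nlrp1a probe, and also that of Aim2, Pycard, Casp1, Casp4 and Gsdmd. The 2 probes of Nlrp1b, another copy, had log2 fold changes of 1.19 ± 0.56 and 1.27 ± 0.48 (SE), with adjusted p of 0.201 and 0.127. Whether the dimmer Nlrp1a probe also measured RNA of Nlrp1c-ps was not tested.

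Pycard encodes the adaptor ASC, which links a sensor to caspase-1. Hearts 1, 2 and 4 had log2 levels of 5.01, 4.88 and 4.98, against 3.68, 4.57 and 5.01 in spleen 1, 2 and 4. Spleen 4 was as high as the highest heart, and spleen 1 was the lowest sample. In intensity units, the processed signal of Pycard was 51488, 45131 and 55881 in the hearts and 25462, 39801 and 57601 in the spleens. For Pycard the log2 fold change was 0.53 ± 0.34 (SE, adjusted p = 0.339), with a 95% interval of −0.29 to 1.36. It was 0.16 without spleen 1, 0.83 without spleen 4, 0.12 under quantile normalization and −0.00297 with slide as a block.

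Casp1 encodes the protease that matures interleukin-1β and interleukin-18. Its log2 levels were 4.03, 3.96 and 3.95 in the hearts, against 3.30, 3.70 and 4.40 in the spleens. The hearts lay between spleen 2 and spleen 4. The mean was 3.98 ± 0.044 in heart and 3.80 ± 0.56 in spleen (SD, n = 3 each), and the log2 fold change of 0.18 ± 0.30 (SE, adjusted p = 0.717) turned to −0.18 under quantile normalization, −0.37 with slide as a block and −0.069 without spleen 1, and was 0.48 without spleen 4. The 95% interval of its fold ran from 0.693 to 1.85, so a difference of either sign within that range is not excluded by these samples.

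Casp4 encodes the lipopolysaccharide sensor caspase-11, which is known to be induced by interferons and by lipopolysaccharide. On its brighter probe the log2 levels were 3.76, 3.84 and 3.99 in the hearts, against 2.71, 3.33 and 3.95 in the spleens. Spleen 4 lay within the hearts, and spleen 1 was the lowest. This probe gave a log2 fold change of 0.53 ± 0.32 (SE) and an adjusted p of 0.312, and the dimmer probe, which shares 55 bases with the brighter one and so is no independent check, gave 0.54 ± 0.32 (SE, adjusted p = 0.306). The brighter probe gave 0.22 without spleen 1, 0.84 without spleen 4 (adjusted p = 0.0526), 0.20 under quantile normalization and −0.19 with slide as a block.

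Gsdmd encodes gasdermin D, the pore protein that both caspases cut. Its log2 levels were 2.52, 2.33 and 2.42 in the hearts, against 1.69, 2.19 and 2.93 in the spleens, and the hearts lay between spleen 2 and spleen 4. For Gsdmd the log2 fold change was 0.15 ± 0.32 (SE, adjusted p = 0.784) and turned to −0.065 under quantile normalization, −0.41 with slide as a block and −0.14 without spleen 1, and was 0.48 without spleen 4. Its probe was printed at several spots of each array, of which 9 or 10 were usable, and the SD over the spots of an array was 0.034 to 0.042 log2 units. The SD over the samples was 0.096 log2 units in heart and 0.62 in spleen (n = 3 each).

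Panx1 encodes pannexin-1, a channel that releases ATP and that caspases can open. Levels of Panx1 were 1.61, 1.77 and 1.74 on the log2 scale in the hearts, against 1.94, 1.81 and 2.46 in the spleens. All hearts were below all spleens, by a narrow gap from heart 2 to spleen 2. The log2 fold change was −0.36 ± 0.22 (SE, adjusted p = 0.316), with a 95% interval of −0.89 to 0.17. It was −0.16 without spleen 4, −0.55 under quantile normalization and −0.84 with slide as a block.

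**Figure D2:**
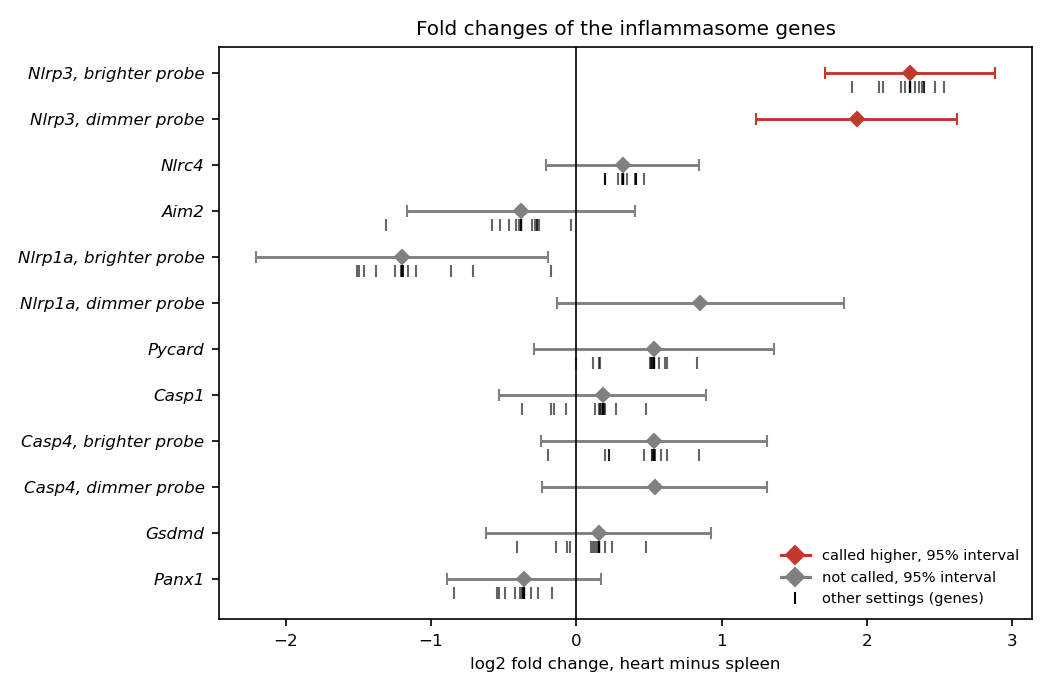
Log2 fold change, heart minus spleen, of each member probe with its 95% interval, and small ticks for the gene's values under other ways of processing or without 1 sample. Only the intervals of the Nlrp3 probes and of the brighter Nlrp1a probe exclude 0, Nlrp3 alone was called, and the directions of Casp1 and Gsdmd turn under quantile normalization.

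The members varied much more among the spleens than among the hearts. The SD over 3 samples was larger in spleen for all 12 member probes, with a median over the 9 genes of 0.096 log2 units in heart and 0.60 in spleen. Over all genes tested the median was 0.14 in heart and 0.41 in spleen, and the SD was larger in spleen for 84.3%. Spleen 4 was the highest of the spleens in 6 of the 9 members, against 46.0% of all genes, and spleen 1 was the lowest in 6, against 49.1%. Aim2, Pycard, Casp1, Casp4 and Gsdmd shared this order of spleens. Over the 6 samples, Pearson's r was 0.992 between Casp1 and Gsdmd and 0.897 between Casp1 and Pycard, and with the brighter and the dimmer Nlrp3 probe it was 0.119 and 0.394 for Casp1, 0.056 and 0.313 for Gsdmd, 0.467 and 0.589 for Pycard, and 0.488 and 0.676 for the brighter Casp4 probe. These are descriptions of 6 samples that share arrays and scaling.

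Markers of other cell types differed between the spleens in the same samples. The levels below are sums over each marker list on the linear scale, in units of the array's 75th percentile. All 10 markers of the sorted myeloid cells were above background on all arrays. They summed to 528 to 599 in the hearts, against 182, 341 and 408 in spleen 1, 2 and 4. Bright genes weigh most in such sums. Of the 10 markers, 2 were called higher in heart, Cd14 (log2 fold change 5.49) and Fcgr1 (2.26), and 8 were not called. Those of the sort antigens CD45 (Ptprc) and CD11b (Itgam) had log2 fold changes of −0.11 and 0.044, neither called. Neutrophil markers summed to 69.9 to 83.2 in the hearts, against 850, 1295 and 555 in the spleens, although the sort selected for low Ly6G, and all 13 were above background in each spleen and 11 to 13 in the hearts. Of the 13, 8 were called lower in heart and 5 were not called, among them the brightest, Csf3r (log2 fold change −0.051). B cell markers summed to 2.74 to 3.08 in the hearts, against 104.7, 5.77 and 4.59 in the spleens, and 0 of the 6 tested were called. T and NK cell markers summed to 7.10 to 8.84 in the hearts, against 71.3, 8.93 and 10.7 in the spleens. Of the T and NK cell markers tested, 1 was called lower in heart, and the brightest, Cd4, was not called (log2 fold change 0.17). Spleen 1 was the lowest of the spleens in Nlrc4, Aim2, Pycard, Casp1, Casp4 and Gsdmd. In Nlrp3 and Panx1 it lay between the other spleens. On the brighter Nlrp1a probe it was the highest, at a log2 level of 4.44, against 2.85 and 3.11 in spleen 2 and 4. The same sample was the lowest in summed myeloid markers and by far the highest in summed B, T and NK cell markers. Fibroblast markers summed to 1.86 to 5.30 in the hearts and 0.120 to 0.178 in the spleens, with 5 to 7 and 1 to 3 of 8 above background. Cardiomyocyte markers summed to 0.521 to 0.879 in the hearts and 0.211 to 0.291 in the spleens, with 5 to 7 and 2 to 4 of 7 above background. Erythroid markers summed to 0.118 to 0.190 in the hearts, against 4.95, 0.283 and 0.151 in spleen 1, 2 and 4. Of those tested, 5 of 5 fibroblast and 3 of 5 cardiomyocyte markers were called higher in heart, and 0 of 2 erythroid markers were called. Dendritic cell markers summed to 44.7 to 55.1 in the hearts and 37.7 to 46.8 in the spleens, with 0 of 5 called. Endothelial markers summed to 2.49 to 3.18 and 2.12 to 2.24, with 1 of 4 called, higher in heart. The part of these cells in the members' values was not tested. Nlrp3 had a log2 fold change of 2.30 with all samples, and its direction and call were kept when any single sample was left out. That check cannot address cell types whose markers differed between all hearts and all spleens, such as neutrophils and fibroblasts.

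**Figure D3:**
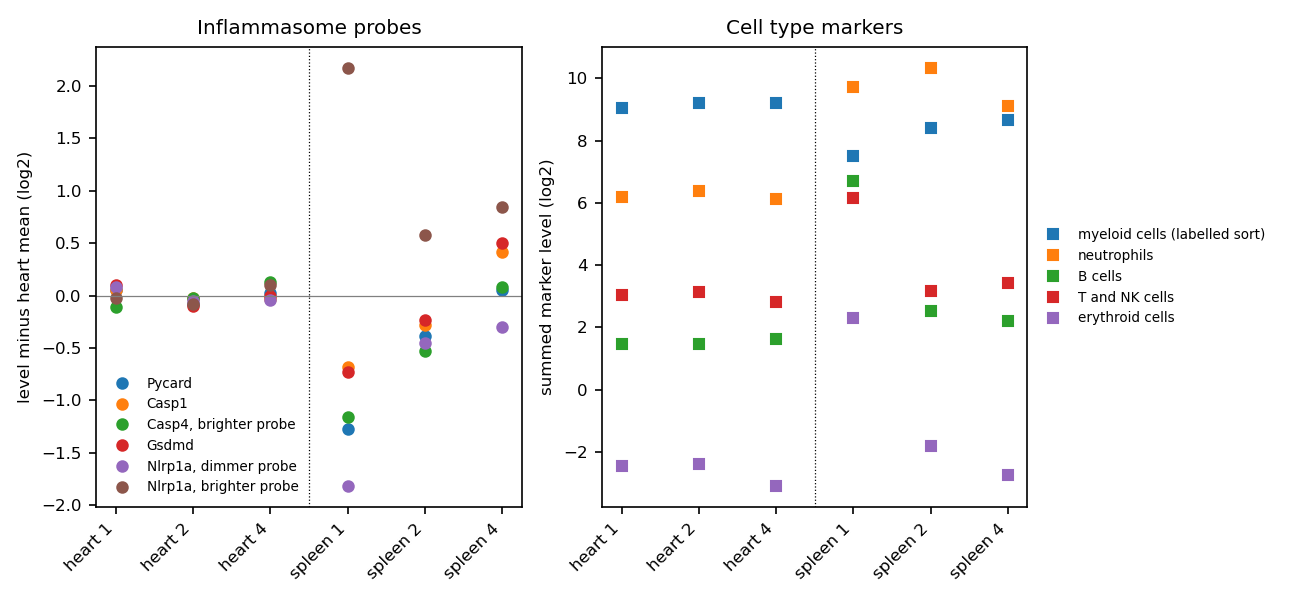
Left, log2 levels of 6 member probes minus their mean over the hearts; right, log2 of summed cell type marker levels; both by sample, with hearts left of spleens. On the left, hearts lie close to 0. Among the spleens, Pycard, Casp1, Casp4, Gsdmd and the dimmer Nlrp1a probe are lowest in spleen 1 and highest in spleen 4. The brighter Nlrp1a probe is highest in spleen 1. On the right, spleen 1 has the highest summed B, T and NK cell and the lowest summed myeloid marker level.

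Genes that act with the members were described in 4 further lists of 70 genes, of which 65 were tested. Of these, 9 were called higher and 2 lower, 16.9% of those tested, near the 15.5% of all genes. At an unadjusted p under 0.05, 21 of the 65 passed, against 5230 of all 16365 genes. The median log2 fold change of the 65 was 0.33. Of the calls, 8 of the 11 belonged to the substrates of the pathway and their regulators, 3 to death executioners, and 0 to other sensors or to the interferon-induced genes that license the pathway. These counts were not tested against each other. Without spleen 4 the sensors had 5 calls and the licensing genes 2, all higher. In that setting 2475 of all 16365 genes were called higher, against 1485 with all samples.

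**Figure D4:**
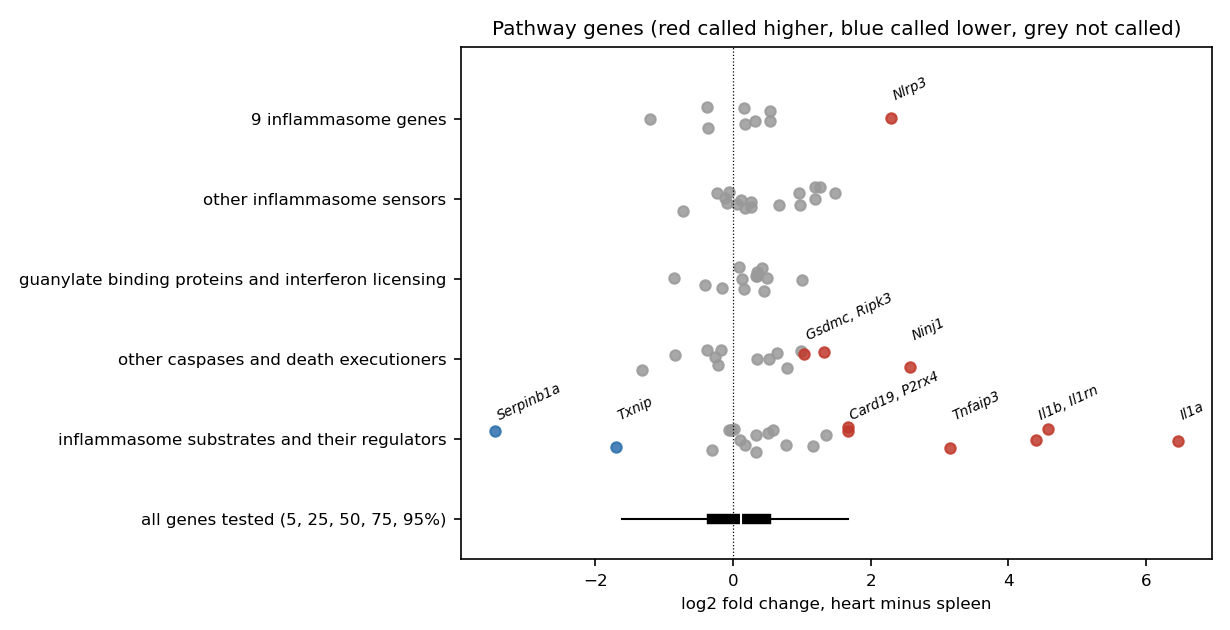
Log2 fold change, heart minus spleen, of the 9 members and of 4 further lists, with called genes named; the bar at the bottom gives percentiles of all genes tested. The named genes are Nlrp3 and the 11 calls of the further lists, and Il1a is drawn at its fitted value, as its spleen signals were not well above background.

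Of the named genes of these lists, those with the largest log2 fold changes belonged to the substrates and their regulators. Il1a, which encodes the alarmin interleukin-1α, was in no spleen well above background, and its level in heart was at least 25.1-fold higher. It entered the limma test through the hearts alone. Its adjusted p of 0.000658 is that of the fit to the spleen signals as measured, not of this bound. Il1rn, the antagonist of the interleukin-1 receptor, had log2 levels of 2.30, 2.09 and 2.55 in the hearts, against −2.35, −1.96 and −2.48 in the spleens. It was higher in heart by 4.58 ± 0.22 log2 units (SE, adjusted p = 0.000343). Il1b, the main substrate of caspase-1, had log2 levels of 6.23, 6.41 and 6.79 in the hearts, against 3.51, 0.53 and 2.15 in the spleens. The lowest heart exceeded the highest spleen, and the log2 fold change of Il1b was 4.41 ± 0.71 (SE, adjusted p = 0.0137). Serpinb1a, an inhibitor of neutrophil proteases and of caspase activation, was lower in heart, with log2 levels of 1.53, 1.67 and 1.87 in the hearts, against 5.25, 6.26 and 3.94 in the spleens (log2 fold change −3.46 ± 0.56 SE, adjusted p = 0.0138). The calls of Il1b and Serpinb1a ended when any one heart was left out (adjusted p 0.0594 to 0.0689 for Il1b and 0.0636 to 0.0684 for Serpinb1a), and with slide as a block Il1rn was the only gene of the further lists still called. Of the 21 tested genes of this list, 6 were called higher and 2 lower. The brightest gene not called, Hsp90ab1, a chaperone that holds NLRP3 in a form ready to respond, had a log2 fold change of 0.33 (adjusted p = 0.218).

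Among the other caspases and executioners, 3 of 14 tested genes were called, all higher in heart. Ninj1, which ruptures the plasma membrane after gasdermin pores form, had log2 levels of 5.14, 4.90 and 5.09 in the hearts, against 1.99, 2.39 and 3.02 in the spleens, and was higher in heart by 2.57 ± 0.28 log2 units (SE, adjusted p = 0.00442). Ripk3, the kinase of necroptosis, had a log2 fold change of 1.33 ± 0.23 (SE) and an adjusted p of 0.0167, and the gasdermin Gsdmc one of 1.04 ± 0.22 (SE, adjusted p = 0.0268). The calls of both ended when any one heart was left out (adjusted p 0.0742 to 0.0856 for Ripk3 and 0.101 to 0.118 for Gsdmc), and that of Gsdmc also without spleen 2 (0.0585), with arrays scaled to their median (0.0611), with no filter on dim probes (0.0594) and with the replicate block (0.0686). Zbp1, a sensor of nucleic acids in the Z form, was not called, with a log2 fold change of 0.99 (adjusted p = 0.176, and 0.0168 without spleen 4).

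The other sensors, of which 17 were tested, had 0 calls by limma, 3 at an unadjusted p under 0.05 (5230 of all 16365 genes). Of these sensors, 5 were called higher without spleen 4 and 1 with the dimmest probe of each gene, and 1 was called lower without spleen 1 and 1 under quantile normalization. Of all 16365 genes, 2475 were called higher without spleen 4 and 1431 with the dimmest probe. Without spleen 1, 1112 of them were called lower, and 1141 under quantile normalization. The brightest of them, Ifi204, a DNA sensor of the interferon-inducible p200 family, had log2 levels of 5.89, 6.00 and 5.85 in the hearts, against 3.89, 4.48 and 5.82 in the spleens. Its log2 fold change was 1.19 (adjusted p = 0.145), and its adjusted p without spleen 4 was 0.00578. In the list of guanylate binding proteins and interferon licensing genes, 13 were tested and 0 called, with 2 at an unadjusted p under 0.05. Of the 13, 2 were called higher without spleen 4 and 1 without spleen 1, against 2475 and 1598 of all 16365 genes. Irf1, a transcription factor that drives several genes of this list, had log2 levels of 4.67, 4.18 and 4.37 in the hearts, against 4.62, 4.11 and 4.95 in the spleens, a log2 fold change of −0.16 (adjusted p = 0.732) that turned to 0.038 without spleen 4.

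Over the 6 samples, the genes whose log2 levels were most like those of Nlrp3 by Pearson's r were Zfp821 (r 0.998), Irak2 (0.998) and Mir22hg (0.997), among 14668 genes above background on all arrays. For Pycard they were Ndufa9, Bag6 and Bak1 (r 0.998 each). For Casp1 they were Ids (0.996), Mcoln1 and Fam83a (0.995 each), and for Gsdmd Trafd1 (0.998), Cyp2w1 (0.997) and Gm8630 (0.995). The samples share arrays and scaling, and the likeness is a description only.

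The promoters of Nlrp3 and Casp4 are shown because Nlrp3 was the only called member and its gene and Casp4 hold the same searched motif. The sequences are those of RefSeq in GRCm38.p6, a different build from that of the probes, and 10 promoters of 8 members were in the table, which holds the 250 bases before and 50 bases after each start. The NF-κB form, GGGA and CC with any 4 bases between them, was searched on both strands like all others, and lay in 20.7% of all 32851 promoters and in 3 of the 10 of the members. These were 1 of 2 Nlrp3 promoters and both Casp4 promoters, which overlap and share the match. The PU.1 form GAGGAAGT lay in 3.2% of all promoters and in those of Aim2, Pycard and Nlrp1a. The ISRE form (GAAA repeated with any 2 bases between), the GAS form TTCNNNGAA and the AP-1 form TGANTCA lay in 3.44%, 8.3% and 7.81% of all promoters, and in 0 of the 10. A match is a description, and a missing match says only that these letters are not in the window. The 250 bases before the start lie on the plus strand at chr11:59541319-59541568 for Nlrp3 and chr9:5308599-5308848 for Casp4, and capitals mark the NF-κB match.
Nlrp3: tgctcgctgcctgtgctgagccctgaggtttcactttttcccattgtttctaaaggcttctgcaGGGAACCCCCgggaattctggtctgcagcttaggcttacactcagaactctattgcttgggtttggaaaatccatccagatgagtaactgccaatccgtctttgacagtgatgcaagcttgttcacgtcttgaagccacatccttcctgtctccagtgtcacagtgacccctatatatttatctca
Casp4: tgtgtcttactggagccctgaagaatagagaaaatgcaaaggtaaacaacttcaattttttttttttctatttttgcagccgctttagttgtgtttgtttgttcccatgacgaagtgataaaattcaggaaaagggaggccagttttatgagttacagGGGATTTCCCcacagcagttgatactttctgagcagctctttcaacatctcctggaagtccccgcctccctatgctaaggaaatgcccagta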

How the data were processed

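RNA from sorted myeloid cells was amplified and hybridised to single-colour Agilent arrays. Per the file headers, the authors made the deposited intensity values (processed signals, linear scale, already background-corrected, not scaled between arrays) with Agilent Feature Extraction 10.7.3.1; the deposited value table holds log2 values of unstated baseline. Differences between its columns matched those of quantile-normalized log2 signals (r 0.9993 to 0.9999 over 15 pairs of arrays), which settles scale and direction; each column's median was 0, the subtracted baseline stays unknown, and the table served as an alternative only.

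Here the log2 processed signal minus each array's 75th percentile was used, without control or outlier spots, with spots of a probe averaged. Of 39429 probes, 21801 well above background on all 3 arrays of a tissue were tested, a gene being its brightest tested probe (16365 genes). The moderated test of limma (version 3.58.1, R version 4.3.3) compared heart minus spleen, two-sided, with p-values adjusted by Benjamini-Hochberg over all genes. Figures used Python 3.11.15 and matplotlib 3.10.9, and files were read with data.table (version 1.17.8). The percent of probes above background was 53.0 to 56.7 in hearts and 56.0 to 63.8 in spleens. Precision is limited by 3 arrays a tissue. Members and lists were chosen with earlier results of these data known. All members were named, from each pathway list the 4 called genes with the largest change and the brightest not called, and the 3 genes most like Nlrp3, Pycard, Casp1 and Gsdmd. Alternatives changed scaling, background correction, filter, probe choice, prior, block and samples; using the dimmest probe and array weights was chosen after seeing the data.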

Additional observations from a re-analysis of the deposited data

How the results depend on the processing

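Nlrp3 kept its direction under all 20 alternatives, with log2 fold changes between 1.90 and 2.53 and adjusted p between 0.0019 and 0.0696; slide as a fixed block ended its call, so 0 members were then called higher. Under that block 92 genes were called, and 1 of the 11 calls in the 4 further lists was left. Without a filter on dim probes 1479 genes were called. Leaving out 1 sample gave 432 to 4067 called genes (432, 465 and 496 without heart 1, 2 and 4, and 4067 without spleen 4), 5 to 24 calls in the further lists, and 0 to 1 members called lower (the brighter Nlrp1a probe without spleen 1, while the dimmer probe points the other way). The replicate numbers do not show pairing: the deviations of same-numbered samples correlated at −0.05, 0.04 and 0.009, and not every sample correlated best with its own number; the replicate block called 1533 genes and gave Nlrp3 an adjusted p of 0.0163. Directions turned for Nlrp1a with its dimmer probe (0.85), for Pycard (−0.00297) and Casp4 (−0.19) with slide as a block, for Casp1 with quantile normalization (−0.18), the deposited value table (−0.16), slide (−0.37) and without spleen 1 (−0.069), for Gsdmd in the same settings (−0.065, −0.042, −0.41 and −0.14), and for Irf1 without spleen 4 (0.038). Leaving out 1 sample gave −0.069 to 0.48 for Casp1, −0.14 to 0.48 for Gsdmd and −0.38 to 0.038 for Irf1. The causes were not tested. Scaling moved the median of all genes between 0.03 and 0.20 log2 units. With slide as a random block, Nlrp3 had a log2 fold change of 2.30 (adjusted p = 0.00385).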
